A study of Mus musculus with 12 samples.

Results

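The genes described here carry out DNA replication and cell division. They are 51 genes taken by symbol from a list of S phase and mitosis genes, out of 28188 gene symbols in the count table, and all 51 were found there. These genes, and the other gene lists named below, were chosen with earlier results of these data known. The 17 replication genes and the 34 mitosis genes are given apart. The replication genes comprise 8 for origin licensing and the replicative helicase, the sliding clamp Pcna, 4 for the supply of deoxynucleotides and 4 G1 to S cyclins and E2F factors. The mitosis genes comprise 6 for the mitotic cyclins, Cdk1 and their transcription factors, 5 for chromosome structure, 7 for the kinetochore and spindle checkpoint, 4 for mitotic kinases and the chromosomal passenger complex, 5 for spindle assembly, 5 for the central spindle and cytokinesis, and 2 for the anaphase-promoting complex. Poly(A) RNA was sequenced from B cells and dendritic cells (DC) that had been isolated from spleen at 12 weeks of age. Each cell type came from NOD mice, a strain that develops autoimmune diabetes, and from NOD.Idd2 mice, which carry the Idd2 diabetes locus of B10 origin in the NOD background. There were 3 libraries in each of the 4 groups. No treatment is labelled, and the labels do not state whether a library is 1 mouse or a pool, nor how the cells were isolated, so p-values measure the spread between these libraries.

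A dividing cell first loads the Mcm2 to Mcm7 helicase on replication origins with the help of Cdc6, fires it with Cdc45, and copies its DNA with polymerases held by the Pcna clamp. Cyclin B with Cdk1 then drives entry into mitosis, condensins and topoisomerase compact and untangle the chromosomes, kinesins build the spindle, and the anaphase-promoting complex ends mitosis by marking cyclins for destruction. Replication genes are typically switched on by E2F factors late in G1, whereas many mitosis genes are switched on later through a promoter element called the cell cycle genes homology region (CHR), often near CCAAT boxes, by the MuvB complex with B-Myb (Mybl2) and Foxm1. In the spleen most B cells rest, while conventional dendritic cells are short-lived and are renewed by precursors that still divide.

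Promoters of both kinds of gene are shown, since replication and mitosis genes are given apart and differ in these letters. The windows are from RefSeq on GRCm38.p6, and 44 of the 51 genes had one, 4 of them more than 1. Each of the following runs holds the 200 bases before the annotated start, read 5′ to 3′ on the strand of the gene. Capitals mark a match, on either strand, to CHR (TTTGAA or TTCGAA), to CCAAT, or to an E2F motif (TTTGGCGC, TTTCGCGC, TTTCCCGC or TTTGCCGC), and a longer run of capitals is 2 overlapping matches. Mki67, at chr7:135716380-135716579 (minus strand), Top2a, at chr11:99024190-99024389 (minus strand), and Kif11, at chr19:37376182-37376381 (plus strand), are mitosis genes. Mcm5, at chr8:75109309-75109508 (plus strand), and Mcm6, at chr1:128359706-128359905 (minus strand), encode helicase subunits.
Mki67: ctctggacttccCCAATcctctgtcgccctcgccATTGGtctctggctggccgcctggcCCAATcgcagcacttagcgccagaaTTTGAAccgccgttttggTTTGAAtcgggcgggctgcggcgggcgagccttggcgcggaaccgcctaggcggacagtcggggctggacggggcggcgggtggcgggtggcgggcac
Top2a: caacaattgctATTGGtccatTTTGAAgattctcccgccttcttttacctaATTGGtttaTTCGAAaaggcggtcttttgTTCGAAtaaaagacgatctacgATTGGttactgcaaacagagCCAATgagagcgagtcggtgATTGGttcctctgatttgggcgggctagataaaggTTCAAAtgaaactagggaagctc
Kif11: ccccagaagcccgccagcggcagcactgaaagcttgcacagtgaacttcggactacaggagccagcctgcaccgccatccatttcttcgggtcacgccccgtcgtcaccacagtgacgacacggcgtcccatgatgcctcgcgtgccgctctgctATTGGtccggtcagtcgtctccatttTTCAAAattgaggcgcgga
Mcm5: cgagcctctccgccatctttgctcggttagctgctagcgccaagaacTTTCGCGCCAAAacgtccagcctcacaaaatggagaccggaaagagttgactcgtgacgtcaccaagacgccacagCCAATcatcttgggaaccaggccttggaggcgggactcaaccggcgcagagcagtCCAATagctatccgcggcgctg
Mcm6: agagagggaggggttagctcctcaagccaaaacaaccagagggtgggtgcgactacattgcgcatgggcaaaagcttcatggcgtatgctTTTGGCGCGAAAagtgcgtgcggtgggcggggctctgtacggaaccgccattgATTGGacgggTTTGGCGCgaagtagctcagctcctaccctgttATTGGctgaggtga
In windows from 250 bases before to 50 bases after the start, a CHR match lay in 27 of 32 mitosis windows (84.4%), in 4 of 16 replication windows (25.000%) and in 19.2% of all 32851 windows. A CCAAT match lay in 26 of 32 mitosis windows (81.2%), in 11 of 16 replication windows (68.8%) and in 37.4% of all windows. E2F matches showed the other order, with 5 of 16 replication windows (31.2%), 4 of 32 mitosis windows (12.5%) and 2.26% of all windows. A match describes the letters only, not binding.

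Libraries held 40344883 to 44632276 counts in B cells and 22769062 to 30337812 counts in 5 of the dendritic cell libraries. NOD.Idd2 dendritic cell replicate 3 was the shallowest, with 8663421 counts, and the lowest count of any of the 51 genes in a library was 31. Levels are in CPM, counts scaled to library size, with TMM factors over all 12 libraries. The cell types carried their defining markers: 8 B cell markers summed to 11959.6 to 12596 and 12164 to 12492 CPM in NOD and NOD.Idd2 B cells against 494 to 518 and 472 to 485 CPM in dendritic cells, and 8 dendritic cell markers to 9.65 to 11.3 and 9.34 to 10.7 against 3846 to 4199 and 3819.7 to 4169 CPM. Xist, expressed from the inactive X chromosome of females, lay between 1559.9 and 2103 CPM in B cells and at or under 0.154 CPM in dendritic cells. The Y-linked Ddx3y was at 0 in every B cell library and between 235 and 306 CPM in dendritic cells. Cell type and sex therefore cannot be told apart in comparisons of dendritic cells with B cells, or in the difference of their strain effects. Each strain comparison is within 1 sex.

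As a whole the mitosis genes were most abundant in NOD.Idd2 dendritic cells, then in NOD dendritic cells, and least abundant in B cells. Their summed level was 358, 361 and 360.5 CPM in NOD B cell replicates 1 to 3, 405, 421 and 351 CPM in NOD.Idd2 B cells, 708, 814 and 805 CPM in NOD dendritic cells and 954, 1091 and 999 CPM in NOD.Idd2 dendritic cells. The 3 NOD.Idd2 dendritic cell libraries all lay above the 3 of NOD, with means of 1015 ± 69.5 against 776 ± 58.9 CPM (SD, n = 3), whereas in B cells NOD.Idd2 replicate 3 lay under all NOD libraries. The replication genes spread over a narrower range. They summed to 535, 543 and 523 CPM in NOD B cells, 546, 547 and 513 CPM in NOD.Idd2 B cells, 677, 657 and 673 CPM in NOD dendritic cells and 696, 777 and 702 CPM in NOD.Idd2 dendritic cells. Dendritic cells thus lay above B cells for both sums without overlap, by a ratio of means of 2.16 for mitosis and 1.25 for replication in NOD. In these bulk libraries more dividing cells and more RNA of these genes per cell cannot be told apart.

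**Figure D1:**
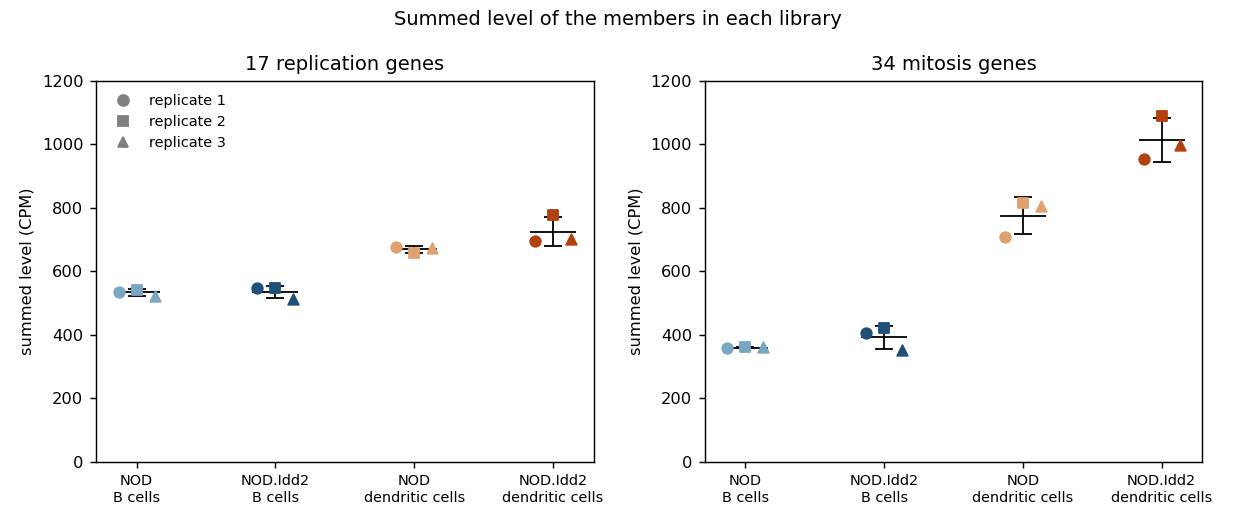
Summed level of the replication genes (left) and the mitosis genes (right) in CPM, on a linear axis from 0, for the 4 groups. Points are libraries, shaped by replicate number, and bars are the mean and SD of 3. The mitosis sum rises from 359.7 CPM in NOD B cells to 1015 CPM in NOD.Idd2 dendritic cells, a wider range than that of the replication sum.

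Per kilobase of exon, the helicase subunit Mcm4 led the list in B cells of both strains and in NOD dendritic cells, at 25.1, 23.3 and 24.001 CPM per kb. Exon length here combines every annotated exon of a gene, so these ranks depend on the annotation as well. In NOD.Idd2 dendritic cells Mki67 led at 25.4 CPM per kb, ahead of Mcm6 at 24.9 and Mcm4 at 24.8, values that differ by less than the spread between libraries. Mki67 was 13th of 51 in NOD B cells, at 4.29 CPM per kb, and 4th in NOD dendritic cells, at 17.98. The lowest levels per kb belonged to Anln, a cleavage furrow scaffold, in B cells (0.186 in NOD) and to cyclin B1 (Ccnb1) in dendritic cells (0.566 in NOD).

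The first question was whether these genes differed between NOD.Idd2 and NOD dendritic cells. Mitosis genes rose in NOD.Idd2 dendritic cells: 8 of 34 passed the test, all 8 higher, by 1.38-fold to 1.76-fold, and none of the 17 replication genes did. The genes were Mki67, Top2a and Ncapg, which organise mitotic chromosomes, Cenpe and Cenpf of the kinetochore, Nusap1 and Kif11 of the spindle, and the transcription factor Foxm1. Over all 14441 genes tested, 1.29% passed in either direction and 0.665% were higher. These calls come from edgeR's quasi-likelihood test within the 6 dendritic cell libraries, with Benjamini-Hochberg adjustment over all genes and a threshold of 0.05.

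Mki67, the gene of the Ki-67 protein that coats mitotic chromosomes, stood at 167, 189.9 and 186 CPM in NOD replicates 1 to 3 and 232, 274 and 259.8 CPM in NOD.Idd2 replicates 1 to 3. Its log2 fold change was 0.50 ± 0.07, edgeR adjusted p = 0.00263 (± SE, n = 3 against 3, as for every fold change below). Top2a, the topoisomerase that untangles sister chromatids, stood at 70.8, 87.6 and 85.2 CPM in NOD replicates 1 to 3 and 113, 131 and 118 CPM in NOD.Idd2 replicates 1 to 3. The Top2a log2 fold change was 0.58 ± 0.08, edgeR adjusted p = 0.00269. For both genes all 3 NOD.Idd2 libraries lay above all 3 NOD libraries, and NOD replicate 1 was the lowest library. Ncapg, a condensin I subunit, stood at 11.3, 10.7 and 12.04 CPM in NOD replicates 1 to 3 and 14.8, 16.2 and 15.96 CPM in NOD.Idd2 replicates 1 to 3. The Ncapg log2 fold change was 0.46 ± 0.09, edgeR adjusted p = 0.0363. Again the strains did not overlap, although here NOD replicate 2 was lowest.

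Cenpe, the kinesin that carries chromosomes along kinetochore microtubules, stood at 15.8, 16.97 and 17.96 CPM in NOD replicates 1 to 3 and 21.4, 27.3 and 25.9 CPM in NOD.Idd2 replicates 1 to 3. The Cenpe log2 fold change was 0.55 ± 0.10, edgeR adjusted p = 0.0157. Cenpf, another kinetochore protein, stood at 12.4, 15.4 and 12.9 CPM in NOD replicates 1 to 3 and 18.1, 20.9 and 19.4 CPM in NOD.Idd2 replicates 1 to 3. The Cenpf log2 fold change was 0.52 ± 0.10, edgeR adjusted p = 0.0255. Neither gene overlapped between the strains. Nusap1, a microtubule binding protein of the spindle, showed the largest fitted change of the 51 genes, with 8.14, 12.8 and 10.7 CPM in NOD replicates 1 to 3 and 16.5, 20.6 and 18.9 CPM in NOD.Idd2 replicates 1 to 3. Its log2 fold change was 0.82 ± 0.14, edgeR adjusted p = 0.0157. Kif11, the kinesin that pushes spindle poles apart, stood at 15.1, 20.3 and 17.2 CPM in NOD replicates 1 to 3 and 23.1, 30.6 and 27.2 CPM in NOD.Idd2 replicates 1 to 3. The Kif11 log2 fold change was 0.62 ± 0.11, edgeR adjusted p = 0.0211. Both spindle genes were lowest in NOD replicate 1 and highest in NOD.Idd2 replicate 2, without overlap. Foxm1, a transcription factor of mitosis genes, stood at 9.24, 11.6 and 10.8 CPM in NOD replicates 1 to 3 and 13.95, 16.4 and 14.7 CPM in NOD.Idd2 replicates 1 to 3. The Foxm1 log2 fold change was 0.51 ± 0.11, edgeR adjusted p = 0.0417, again with all NOD.Idd2 libraries on top.

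**Figure D2:**
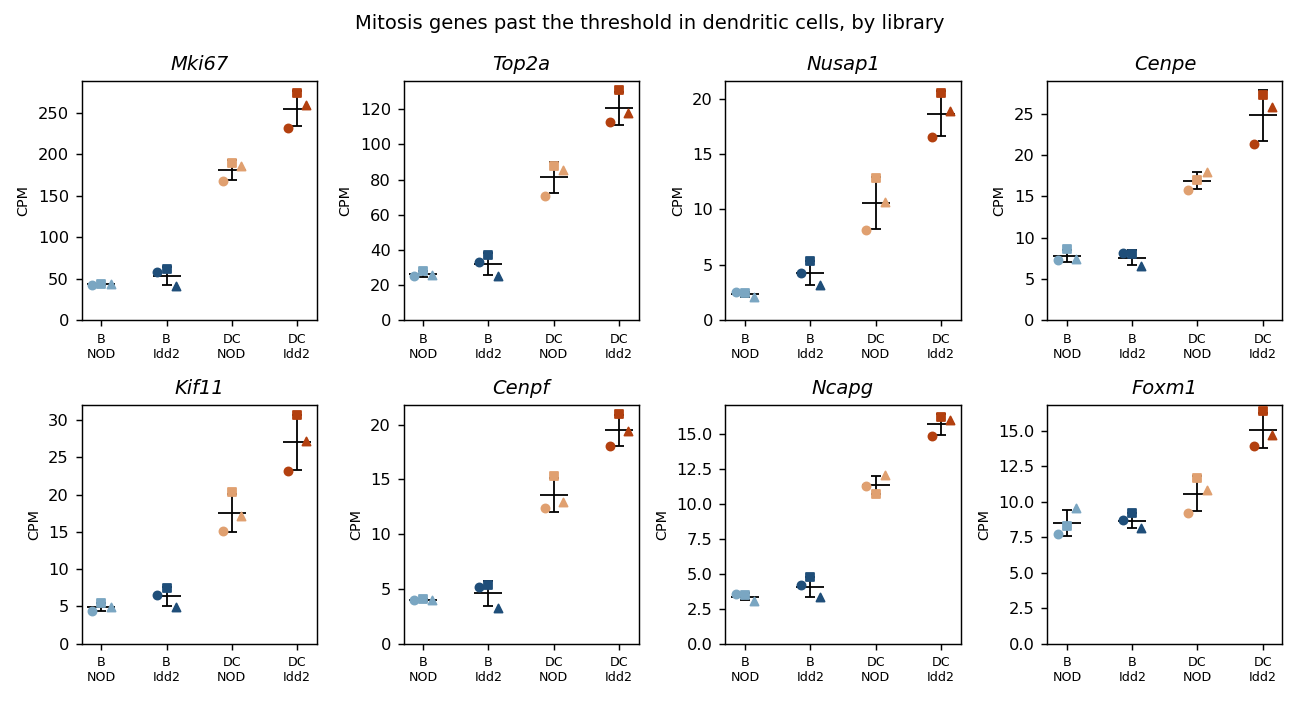
Level in CPM, on linear axes from 0, of the 8 mitosis genes past the threshold in dendritic cells, for B cells and dendritic cells (DC) of NOD and NOD.Idd2 (Idd2) mice. Points are libraries, shaped by replicate number as circle, square and triangle for 1, 2 and 3, and bars are the mean and SD of 3. In each panel the NOD.Idd2 dendritic cell points lie above the NOD ones, for Mki67 at 255 against 181 CPM on average.

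The other mitosis genes lay on the same side without passing. The 51 genes were chosen with earlier results of these data known, so shares over all genes are not an independent comparison. Fitted changes were above 0 for all 51 genes, against 50.2% of all genes tested, with a median log2 fold change of 0.40 for mitosis genes and 0.11 for replication genes, against 0.00 over all genes. The smallest, those of E2f1, Tyms and Bub3, fell under 0 in the fit of all 12 libraries. All 3 NOD.Idd2 libraries lay above all 3 NOD libraries for 25 of 34 mitosis genes and 3 of 17 replication genes, against 7.22% of all genes. At an unadjusted p under 0.05, 27 of 34 mitosis genes were higher, against 5.56% of all genes. Of those that missed, cyclin A2 (Ccna2), which acts in S phase and G2, was nearest, with 13.6, 18.9 and 18.6 CPM in NOD replicates 1 to 3 and 22.9, 26.4 and 23.3 CPM in NOD.Idd2 replicates 1 to 3. Its log2 fold change was 0.51 ± 0.11, edgeR adjusted p = 0.0515. Its NOD.Idd2 libraries all lay above those of NOD. The cytokinesis kinesin Kif20a had 0.42 ± 0.09, edgeR adjusted p = 0.0559, and the condensin subunit Smc2 had 0.28 ± 0.06, edgeR adjusted p = 0.061. Smc2 stood at 48.2, 51.04 and 54.04 CPM in NOD replicates 1 to 3 and 58.2, 65.2 and 63.04 CPM in NOD.Idd2 replicates 1 to 3, without overlap. The smallest change among mitosis genes was that of the checkpoint protein Bub3, 0.01 ± 0.06, edgeR adjusted p = 0.957, and the strains overlapped.

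By role, 3 of 5 chromosome structure genes, 2 of 7 kinetochore and checkpoint genes, 2 of 5 spindle assembly genes and 1 of 6 genes for mitotic cyclins, Cdk1 and their transcription factors passed. None passed among the 4 mitotic kinase and passenger genes, the 5 central spindle and cytokinesis genes and the 2 anaphase-promoting complex genes. The median log2 fold change per role ran from 0.21 for the kinase and passenger genes, which include Aurka and Plk1, to 0.46 for the chromosome structure genes. Of the 8 genes that rose, 7 had a promoter window and 5 of these held a CHR match, against 19 of the 22 other mitosis genes with a window. Mki67, Top2a and Kif11 are the examples printed above, and Nusap1 and Cenpe held none.

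In the replication genes no change passed by edgeR's quasi-likelihood test, while 5 of 17 had an unadjusted p under 0.05 (11.3% of all genes), DESeq2 called 1 (2.05% of all genes) and limma-voom called 0. The one called by DESeq2 was Rrm2, the regulatory subunit of ribonucleotide reductase, with 17.2, 27.3 and 23.6 CPM in NOD replicates 1 to 3 and 29.7, 34.2 and 30.5 CPM in NOD.Idd2 replicates 1 to 3. Its log2 fold change was 0.48 ± 0.13, edgeR adjusted p = 0.125, and NOD replicate 1 was the lowest library. The repressor E2f8 had 0.41 ± 0.10, edgeR adjusted p = 0.0974. The 6 helicase subunits had log2 fold changes of 0.05 to 0.11. Mcm6 stood at 111, 103 and 110.0 CPM in NOD replicates 1 to 3 and 107, 125 and 117 CPM in NOD.Idd2 replicates 1 to 3 (log2 fold change 0.11 ± 0.06, edgeR adjusted p = 0.552), and Mcm4 at 87.9, 83.7 and 86.8 CPM in NOD replicates 1 to 3 and 83.1, 94.6 and 89.5 CPM in NOD.Idd2 replicates 1 to 3 (log2 fold change 0.05 ± 0.06, edgeR adjusted p = 0.814). For both, the strains overlapped. The clamp gene Pcna had 0.12 ± 0.06, edgeR adjusted p = 0.478, and thymidylate synthase (Tyms) had 0.00 ± 0.12, edgeR adjusted p = 0.997.

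**Figure D3:**
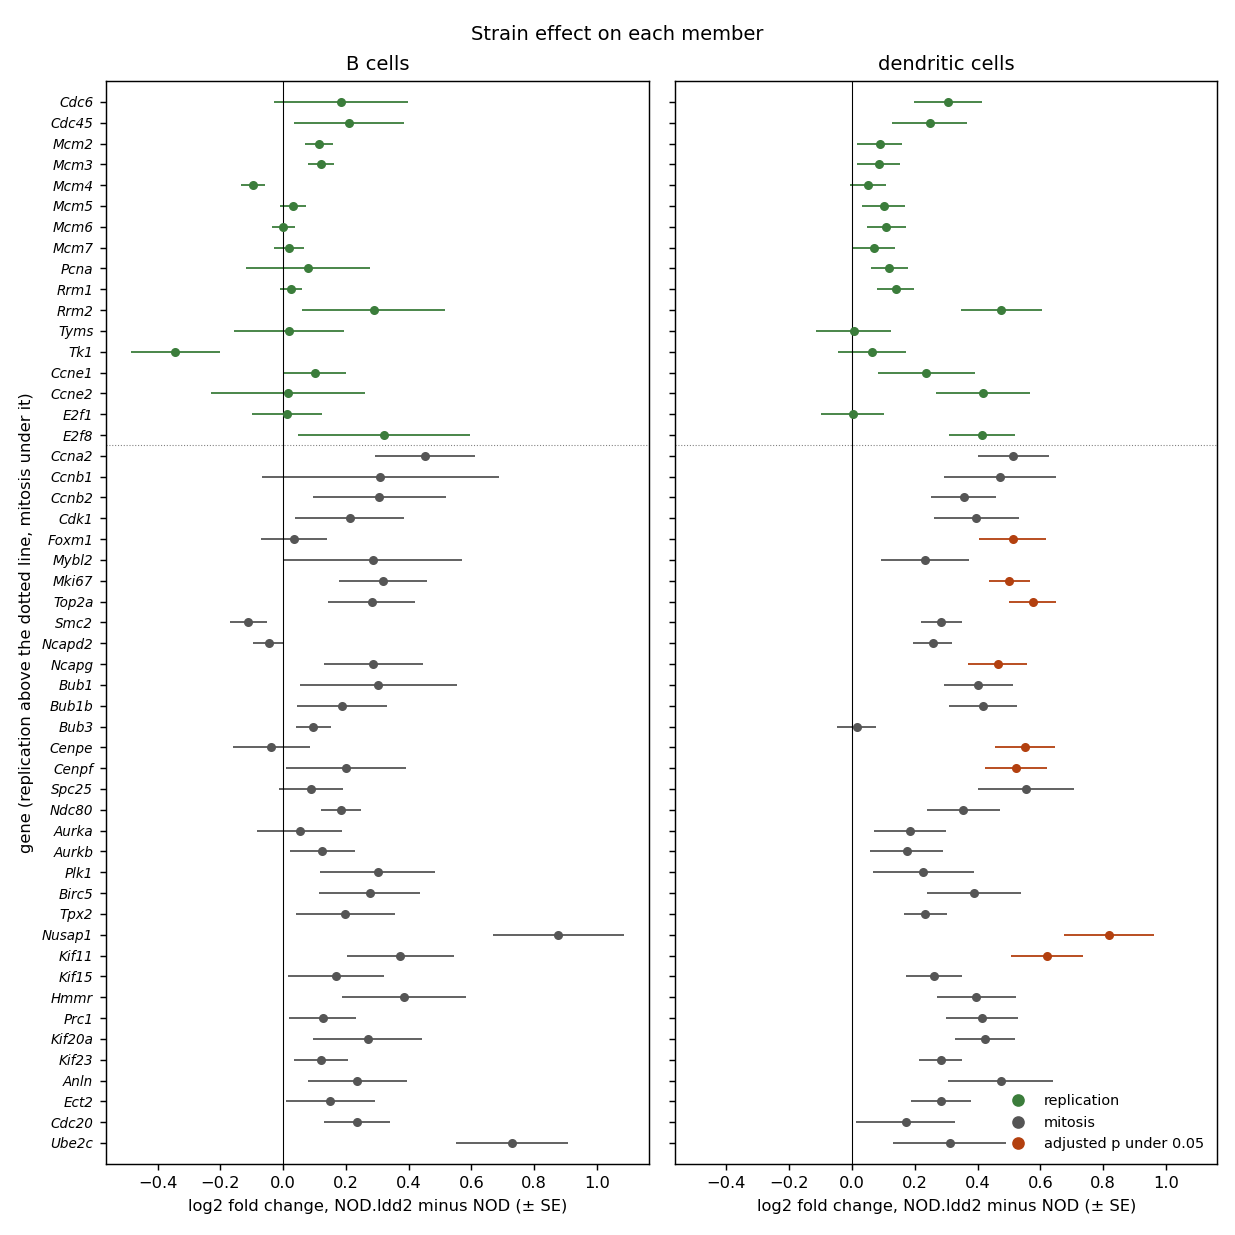
Log2 fold change of NOD.Idd2 against NOD with its SE (n = 3 against 3) for each of the 51 genes, in B cells (left) and dendritic cells (right). Replication genes are above the dotted line and mitosis genes under it, and orange marks an adjusted p under 0.05 by edgeR. In dendritic cells every point lies above 0, with 8 in orange, while in B cells 46 of 51 points lie above 0, Mcm4, Tk1, Smc2, Ncapd2 and Cenpe lie under it, and none is in orange.

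Which of these calls held depended on the libraries. With each library left out in turn, 2 to 11 of the 51 genes passed, and Mki67 and Top2a passed in all 6 fits (edgeR adjusted p at most 0.0323 for both). Without NOD.Idd2 replicate 1, 2 or 3 the counts were 5, 2 and 2, and without NOD replicate 1, 2 or 3 they were 8, 6 and 11. Calls over all genes also changed, to 71, 63 and 77 in the former fits and 267, 118 and 332 in the latter. These fits tested 14581 to 14741 genes. In a fit of all 12 libraries, which shares 1 estimate of spread with the B cells, none of the 51 passed (0.567% of all genes) and the edgeR adjusted p of the 8 genes ran from 0.0603 to 0.223.

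Genes of the same processes outside the 51 were counted in the same fit, in which 1.29% of all genes passed, 11.3% had an unadjusted p under 0.05 and the median log2 fold change was 0.00. Of 54 other mitosis genes, 4 passed, all higher, with a median log2 fold change of 0.29 and 52 above 0, a smaller share and a smaller median than in the 34 mitosis genes above. They were Racgap1, a cytokinesis regulator (0.50 ± 0.07, edgeR adjusted p = 0.00283), Knl1, a kinetochore scaffold (0.63 ± 0.11, edgeR adjusted p = 0.0141), Ncapg2, a condensin II subunit (0.35 ± 0.07, edgeR adjusted p = 0.0393), and the kinase Melk (0.50 ± 0.11, edgeR adjusted p = 0.0455). Of 51 other replication genes, such as origin recognition and polymerase subunits, none passed by edgeR (9 at an unadjusted p under 0.05, DESeq2 0, limma-voom 0), and their median was 0.07. None of 8 G1 cyclins, kinases and growth regulators passed either, with 0 at an unadjusted p under 0.05 and 0 by DESeq2. Cyclin D1 (Ccnd1), the most abundant of the D cyclins here in dendritic cells, had -0.05 ± 0.07, edgeR adjusted p = 0.846, cyclin D2 (Ccnd2) had 0.12 ± 0.09, edgeR adjusted p = 0.691, cyclin D3 (Ccnd3) had 0.04 ± 0.05, edgeR adjusted p = 0.809, and Myc had 0.10 ± 0.09, edgeR adjusted p = 0.753. Among 17 cell cycle inhibitors none passed (1 at an unadjusted p under 0.05, DESeq2 0). That one was Cdkn2c, an inhibitor of Cdk4 and Cdk6 (0.30 ± 0.11, edgeR adjusted p = 0.323), while Cdkn1a and Cdkn1b had log2 fold changes of -0.12 and -0.06.

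Markers of other cells were measured in the same dendritic cell libraries. Summed over 8 plasma cell markers the level was 313 to 346 CPM in NOD and 348 to 431 CPM in NOD.Idd2, without overlap, and none of 7 tested passed. All 7 had a fitted change above 0, with a median log2 fold change of 0.30 (1 at an unadjusted p under 0.05, DESeq2 0). The immunoglobulin joining chain (Jchain) stood at 21.6, 44.8 and 51.2 CPM in NOD and 108, 32.1 and 106 CPM in NOD.Idd2, with the strains overlapping. Erythroblast markers summed to 14.9 to 21.5 and 8.93 to 34.95 CPM, of which Hbb-bs alone held 6.81 to 10.7 and 6.14 to 20.3 CPM. Klf1 and Gata1 of that list reached 0.308 and 0.500 CPM at most. Neutrophil precursor markers summed to 2.51 to 3.38 and 2.65 to 5.67 CPM, with Prtn3 at 0 counts in all 6 libraries. Germinal centre B cell markers summed to 230.3 to 266 and 254 to 265 CPM. Fitted changes lay above 0 for 5 of 7 erythroblast, 3 of 3 neutrophil precursor and 5 of 6 germinal centre markers tested. Their median log2 fold changes were 0.24, 0.35 and 0.18, and none passed. B cell markers summed to 494 to 518 CPM in NOD and 472 to 485 CPM in NOD.Idd2, without overlap, of which Cd22 alone held 404 to 453 and 406 to 411 CPM. Of the 8 B cell markers 7 had a fitted change under 0, with a median log2 fold change of -0.42 and a lowest of -1.05, and none passed (1 at an unadjusted p under 0.05, DESeq2 0). Apart from Cd22 and Blk, these markers were highest in NOD replicate 3. T cell, natural killer cell, macrophage and plasmacytoid dendritic cell markers overlapped between the strains in sum, but Cd4 and Cd8a held most of the T cell sum and Klrd1 most of the natural killer cell sum. By fitted change, 7 of 8 T cell markers lay above 0 with a median log2 fold change of 0.26, and 5 of 6 natural killer cell markers with a median of 0.44. None of either list passed (0 and 1 at an unadjusted p under 0.05, DESeq2 0 for both). The largest was Klrb1c, a receptor of natural killer cells, at 1.05 ± 0.46, edgeR adjusted p = 0.414, with 26 counts over the NOD and 43 over the NOD.Idd2 libraries. Of the macrophage markers tested 3 of 6 lay above 0, with a median log2 fold change of -0.01. Of the plasmacytoid dendritic cell markers tested 3 of 5 did, with a median of 0.02. In the latter list 2 had an unadjusted p under 0.05, both higher, and neither list had a marker that passed. Cd209a, a marker of type 2 conventional dendritic cells, stood at 284, 359.7 and 338 CPM in NOD and 407, 450.4 and 366 CPM in NOD.Idd2, without overlap (log2 fold change 0.32 ± 0.08, edgeR adjusted p = 0.0757). Clec4a4, also of this list, stood at 128, 146 and 130 CPM in NOD and 122, 136 and 129 CPM in NOD.Idd2, with overlap. Of the 8 dendritic cell markers 5 had a fitted change above 0, with a median log2 fold change of 0.06. None of the 8 passed by edgeR without the replicate block, and 1 was higher with it. DESeq2 called 1 of the 8 (2.05% of all genes) and limma-voom called 0. The part of these cells in the mitosis result was not tested.

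In B cells the same comparison gave no member past the threshold. By edgeR's quasi-likelihood test none of the 51 genes passed, against 0.160% of 15011 genes tested, while 8 had an unadjusted p under 0.05 (6.40% of all genes), DESeq2 called 1 (0.813%) and limma-voom called 0. Fitted changes were above 0 for 46 of the 51 genes, against 52.6% of all genes. The median log2 fold change was 0.22 for mitosis genes and 0.03 for replication genes, against 0.01 over all genes. NOD.Idd2 libraries all lay above those of NOD for 7 of the 51 genes, against 5.58% of all genes, and all under them for 1, against 7.39%. Same-numbered B cell libraries of the strains deviated together, although replicates 1 and 2 also correlated crosswise. Results with a replicate block are therefore given where they differ. With the block, which calls 1.04% of all genes, 2 of the 51 passed, 1 in each direction.

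Nusap1, the spindle gene that rose in dendritic cells, was the one higher with the block in B cells, with 2.505, 2.44 and 2.05 CPM in NOD and 4.26, 5.35 and 3.17 CPM in NOD.Idd2 replicates 1 to 3. Its log2 fold change was 0.88 ± 0.21, edgeR adjusted p = 0.543, and 0.86 with the block, edgeR adjusted p = 0.0184. All NOD.Idd2 libraries lay above all NOD libraries. Tk1, the thymidine kinase of the nucleotide salvage pathway, was the one lower with the block, with 26.9, 32.5 and 24.7 CPM in NOD and 19.1, 25.97 and 20.7 CPM in NOD.Idd2 replicates 1 to 3. It had -0.34 ± 0.14, edgeR adjusted p = 0.774 without the block and -0.35, edgeR adjusted p = 0.0176, with it. For Tk1 the strains overlapped, but within each replicate number NOD.Idd2 was lower. With a term for replicate 3 in place of the block, Nusap1 passed and Tk1 did not.

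The abundant mitosis genes did not separate the strains in B cells. Mki67 stood at 42.4, 43.8 and 43.3 CPM in NOD and 57.6, 61.95 and 40.9 CPM in NOD.Idd2 replicates 1 to 3, and Top2a at 25.1, 28.1 and 25.6 CPM in NOD and 32.9, 37.3 and 24.98 CPM in NOD.Idd2 replicates 1 to 3. In both, NOD.Idd2 replicates 1 and 2 lay above the NOD libraries and replicate 3 under them. Their log2 fold changes were 0.32 ± 0.14, edgeR adjusted p = 0.785 and 0.28 ± 0.14, edgeR adjusted p = 0.793. Without the replicate 3 libraries of both strains Mki67 passed, with a log2 fold change of 0.48 and an edgeR adjusted p = 0.0203, against 0.303% of all genes. Ube2c, the ubiquitin-conjugating enzyme of the anaphase-promoting complex, stood at 1.25, 1.27 and 1.28 CPM in NOD and 2.06, 2.498 and 1.72 CPM in NOD.Idd2 replicates 1 to 3, without overlap and with 0.73 ± 0.18, edgeR adjusted p = 0.559. Among helicase genes, Mcm4 was lower in all 3 NOD.Idd2 libraries, with 92.3, 89.6 and 87.8 CPM in NOD and 83.7, 81.96 and 85.1 CPM in NOD.Idd2 replicates 1 to 3 and -0.10 ± 0.04, edgeR adjusted p = 0.77, while Mcm2 and Mcm3 were higher in all 3 at 0.11 ± 0.05, edgeR adjusted p = 0.765 and 0.12 ± 0.04, edgeR adjusted p = 0.75. None of the other 54 mitosis and 51 replication genes passed by edgeR (6 and 4 at an unadjusted p under 0.05, 0 and 0 by DESeq2). The inhibitor gene Cdkn2c had 0.64 ± 0.12, edgeR adjusted p = 0.318 in the fit without the block and passed with it (edgeR adjusted p = 0.0388).

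Whether the strain effect differed between the cell types was tested directly, in a fit of all 12 libraries. Since the cell types also differ in sex, such a difference cannot be told apart from one between the sexes. No member passed by edgeR's quasi-likelihood test, against 0.109% of 16588 genes tested, while DESeq2 called 1 (0.687%) and limma-voom called 0. At an unadjusted p under 0.05 there were 5 of the 51 genes, all for mitosis, a share near the 8.22% of all genes. These 5, all with a larger change in dendritic cells, were Foxm1, Smc2, Ncapd2, Cenpe and Spc25, with differences of log2 fold change of 0.46 ± 0.15, edgeR adjusted p = 0.449, 0.38 ± 0.09, edgeR adjusted p = 0.204, 0.29 ± 0.07, edgeR adjusted p = 0.237, 0.57 ± 0.16, edgeR adjusted p = 0.321 and 0.44 ± 0.19, edgeR adjusted p = 0.572. Smc2, which in B cells stood at 58.01, 54.4 and 53.2 CPM in NOD and 54.5, 50.1 and 47.8 CPM in NOD.Idd2 replicates 1 to 3, was the gene called by DESeq2 and passed with a replicate block within each cell type (edgeR adjusted p = 0.0431, against 0.338% of all genes). For Mki67 the difference was 0.16 ± 0.17, edgeR adjusted p = 0.851, and for Nusap1 -0.07 ± 0.27, edgeR adjusted p = 0.998. The median difference over the 51 genes was 0.10, and 0.00 without NOD.Idd2 B cell replicate 3. The mitosis changes in dendritic cells are therefore not shown to differ from those in B cells, apart from Smc2 with the block or by DESeq2.

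Between the cell types the members differed far more than between the strains. In NOD, 40 of 51 genes were higher in dendritic cells, 2 were lower and 9 did not pass, by edgeR's quasi-likelihood test in the fit of all 12 libraries, where 76.4% of all 16588 genes passed, 37.7% higher and 38.7% lower. In NOD.Idd2 the counts were 43 higher, 2 lower and 6 not called, against 75.7% of all genes called, 36.7% higher and 38.9% lower. The same 40 genes were higher and the same 2 lower in both strains. Mitosis genes differed most, with 29 of 34 higher in NOD and a median log2 fold change of 1.63, while 11 of 17 replication genes were higher with a median of 0.54. Over all genes the median was -0.04.

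**Figure D4:**
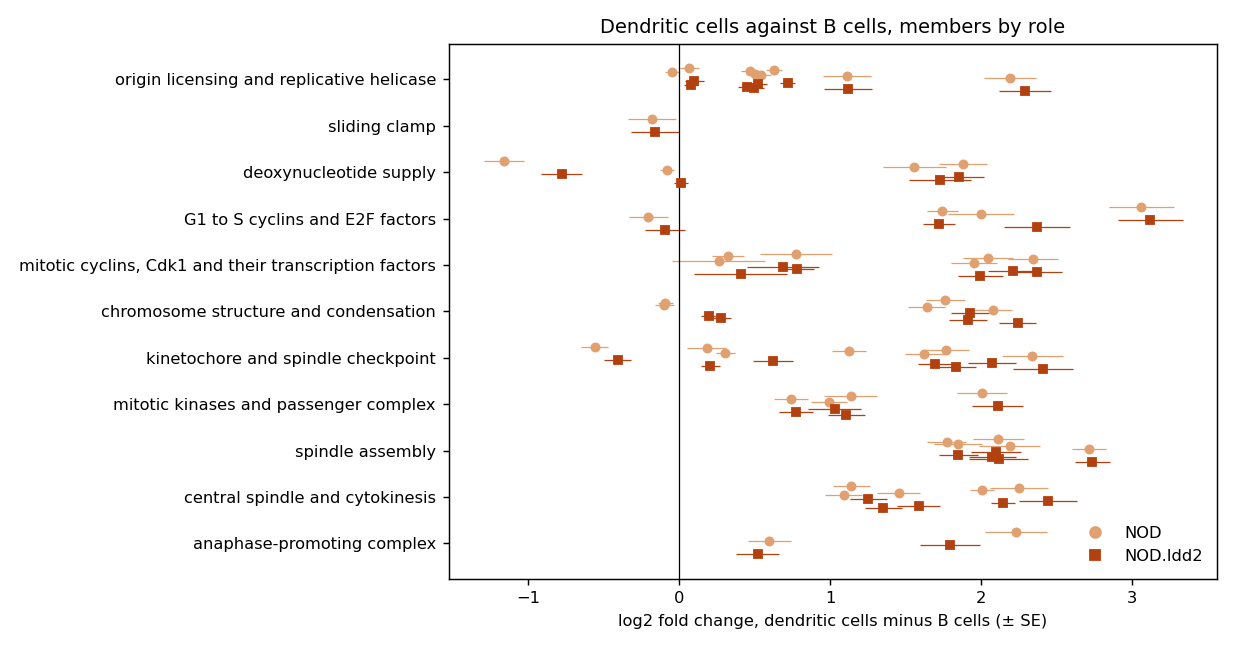
Log2 fold change of dendritic cells against B cells with its SE (n = 3 against 3) for each of the 51 genes, in rows by role, for NOD (circles) and NOD.Idd2 (squares). In NOD the spindle assembly genes lie between 1.77 and 2.72, while the helicase genes lie mostly between 0 and 1. Tk1 in the deoxynucleotide row and Ndc80 in the kinetochore row are the genes called lower, at -1.16 and -0.56 in NOD.

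Of the licensing and helicase genes, the loader Cdc6 differed most, with 2.28, 2.56 and 2.07 CPM in NOD B cells against 9.76, 10.7 and 10.9 CPM in NOD dendritic cells. For Cdc6 in NOD.Idd2 the values were 2.37, 3.39 and 2.04 against 11.7, 14.8 and 11.8 CPM. Its log2 fold changes were 2.19 ± 0.17, edgeR adjusted p = 1.09e-07 in NOD and 2.29 ± 0.17, edgeR adjusted p = 7.56e-08 in NOD.Idd2. The helicase subunit Mcm6 read 70.1, 70.4 and 71.3 CPM in NOD B cells against 111, 103 and 110.0 CPM in NOD dendritic cells. For Mcm6 in NOD.Idd2 the values were 72.2, 68.97 and 69.2 against 107, 125 and 117 CPM, with log2 fold changes of 0.63 ± 0.05, edgeR adjusted p = 1.97e-07 in NOD and 0.72 ± 0.05, edgeR adjusted p = 5.62e-08 in NOD.Idd2. Neither gene overlapped between the cell types. Mcm4, by contrast, read 92.3, 89.6 and 87.8 CPM in NOD B cells against 87.9, 83.7 and 86.8 CPM in NOD dendritic cells. For Mcm4 in NOD.Idd2 the values were 83.7, 81.96 and 85.1 against 83.1, 94.6 and 89.5 CPM. The cell types overlapped, and neither change passed (-0.05 ± 0.05, edgeR adjusted p = 0.348 in NOD and 0.08 ± 0.05, edgeR adjusted p = 0.137 in NOD.Idd2). Pcna read 52.02, 53.7 and 38.2 CPM in NOD B cells against 40.1, 42.5 and 43.2 CPM in NOD dendritic cells. For Pcna in NOD.Idd2 the values were 56.8, 57.8 and 36.6 against 45.2, 47.6 and 43.1 CPM, with log2 fold changes of -0.18 ± 0.16, edgeR adjusted p = 0.307 in NOD and -0.16 ± 0.16, edgeR adjusted p = 0.367 in NOD.Idd2. In B cells Pcna was lowest in replicate 3 of both strains.

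The nucleotide supply genes moved in opposite directions. Thymidylate synthase (Tyms), which makes thymidylate from deoxyuridylate, read 4.32, 4.87 and 3.91 CPM in NOD B cells against 12.9, 18.2 and 16.8 CPM in NOD dendritic cells. For Tyms in NOD.Idd2 the values were 5.31, 4.38 and 3.51 against 15.6, 16.1 and 16.6 CPM, with log2 fold changes of 1.88 ± 0.16, edgeR adjusted p = 2.25e-07 in NOD and 1.86 ± 0.16, edgeR adjusted p = 3.05e-07 in NOD.Idd2. Tk1, which salvages thymidine, read 26.9, 32.5 and 24.7 CPM in NOD B cells against 14.02, 11.8 and 11.3 CPM in NOD dendritic cells. For Tk1 in NOD.Idd2 the values were 19.1, 25.97 and 20.7 against 13.2, 13.7 and 11.5 CPM, with log2 fold changes of -1.16 ± 0.13, edgeR adjusted p = 4.25e-06 in NOD and -0.78 ± 0.14, edgeR adjusted p = 1.99e-04 in NOD.Idd2. Tyms was thus higher and Tk1 lower in every dendritic cell library than in any B cell library. The large ribonucleotide reductase subunit Rrm1 read 71.6, 70.1 and 70.3 CPM in NOD B cells against 61.7, 69.8 and 66.9 CPM in NOD dendritic cells. For Rrm1 in NOD.Idd2 the values were 70.6, 72.5 and 71.4 against 70.1, 76.5 and 71.1 CPM. Rrm1 passed in neither strain (-0.08 ± 0.05, edgeR adjusted p = 0.114 in NOD and 0.01 ± 0.05, edgeR adjusted p = 0.841 in NOD.Idd2). Its partner Rrm2 had log2 fold changes of 1.56 ± 0.21, edgeR adjusted p = 1.84e-05 in NOD and 1.73 ± 0.21, edgeR adjusted p = 7.30e-06 in NOD.Idd2. The E2F factors E2f1, an activator, and E2f8, a repressor, were both higher. E2f1 read 4.74, 5.55 and 5.34 CPM in NOD B cells against 17.1, 15.9 and 18.96 CPM in NOD dendritic cells. For E2f1 in NOD.Idd2 the values were 5.58, 4.901 and 5.18 against 15.4, 18.9 and 17.9 CPM, with log2 fold changes of 1.75 ± 0.11, edgeR adjusted p = 7.58e-09 in NOD and 1.72 ± 0.11, edgeR adjusted p = 1.05e-08 in NOD.Idd2. E2f8 showed the largest fold change of the 51 genes, reading 1.498, 1.78 and 2.03 CPM in NOD B cells against 13.1, 16.2 and 14.6 CPM in NOD dendritic cells. For E2f8 in NOD.Idd2 the values were 2.35, 2.85 and 1.399 against 19.5, 22.03 and 16.1 CPM, with log2 fold changes of 3.06 ± 0.22, edgeR adjusted p = 3.70e-08 in NOD and 3.12 ± 0.21, edgeR adjusted p = 2.89e-08 in NOD.Idd2. Cyclin E1 (Ccne1), which drives entry into S phase, read 5.57, 4.97 and 5.45 CPM in NOD B cells against 4.05, 4.47 and 5.23 CPM in NOD dendritic cells. For Ccne1 in NOD.Idd2 the values were 5.78, 5.49 and 5.78 against 5.299, 6.12 and 4.46 CPM. Ccne1 passed in neither strain (-0.20 ± 0.13, edgeR adjusted p = 0.168 in NOD and -0.10 ± 0.13, edgeR adjusted p = 0.629 in NOD.Idd2), while cyclin E2 (Ccne2) had log2 fold changes of 1.999 ± 0.22, edgeR adjusted p = 2.71e-06 in NOD and 2.37 ± 0.22, edgeR adjusted p = 5.92e-07 in NOD.Idd2.

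Among the mitotic cyclins, cyclin A2 (Ccna2) read 4.67, 4.24 and 4.36 CPM in NOD B cells against 13.6, 18.9 and 18.6 CPM in NOD dendritic cells. For Ccna2 in NOD.Idd2 the values were 6.85, 6.55 and 4.66 against 22.9, 26.4 and 23.3 CPM. Its log2 fold changes were 1.95 ± 0.15, edgeR adjusted p = 1.07e-07 in NOD and 1.997 ± 0.15, edgeR adjusted p = 8.18e-08 in NOD.Idd2. Cyclin B2 (Ccnb2) read 1.59, 1.95 and 2.21 CPM in NOD B cells against 8.71, 9.99 and 10.3 CPM in NOD dendritic cells. For Ccnb2 in NOD.Idd2 the values were 2.67, 2.62 and 1.79 against 12.1, 13.2 and 11.6 CPM, with log2 fold changes of 2.35 ± 0.17, edgeR adjusted p = 4.17e-08 in NOD and 2.37 ± 0.17, edgeR adjusted p = 3.65e-08 in NOD.Idd2. Both were separated without overlap, whereas cyclin B1 (Ccnb1) did not pass in either strain, with log2 fold changes of 0.26 ± 0.31, edgeR adjusted p = 0.455 in NOD and 0.41 ± 0.31, edgeR adjusted p = 0.246 in NOD.Idd2. Of the chromosome structure genes, Mki67 had log2 fold changes of 2.08 ± 0.12, edgeR adjusted p = 6.23e-09 in NOD and 2.24 ± 0.12, edgeR adjusted p = 3.16e-09 in NOD.Idd2, and Ncapg had 1.76 ± 0.13, edgeR adjusted p = 4.54e-08 in NOD and 1.93 ± 0.13, edgeR adjusted p = 1.91e-08 in NOD.Idd2. The condensin subunits Smc2 and Ncapd2 did not share this. Ncapd2 read 40.2, 39.9 and 42.5 CPM in NOD B cells against 38.6, 38.9 and 36.6 CPM in NOD dendritic cells. For Ncapd2 in NOD.Idd2 the values were 37.96, 40.96 and 39.04 against 44.5, 46.1 and 45.5 CPM, with log2 fold changes of -0.09 ± 0.05, edgeR adjusted p = 0.112 in NOD and 0.19 ± 0.05, edgeR adjusted p = 0.00358 in NOD.Idd2. Smc2 had -0.10 ± 0.06, edgeR adjusted p = 0.172 in NOD and 0.28 ± 0.06, edgeR adjusted p = 0.00156 in NOD.Idd2. With the kinetochore gene Spc25 (0.18 ± 0.13, edgeR adjusted p = 0.226 in NOD and 0.62 ± 0.13, edgeR adjusted p = 9.29e-04 in NOD.Idd2), these were the 3 genes called in NOD.Idd2 and not in NOD, and the test of that difference is the one given above.

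Of the kinetochore and checkpoint genes, the checkpoint kinase Bub1 read 2.06, 2.39 and 1.84 CPM in NOD B cells against 9.36, 10.8 and 11.5 CPM in NOD dendritic cells. For Bub1 in NOD.Idd2 the values were 2.79, 3.23 and 1.697 against 12.9, 15.8 and 12.6 CPM, with log2 fold changes of 2.34 ± 0.20, edgeR adjusted p = 2.68e-07 in NOD and 2.41 ± 0.20, edgeR adjusted p = 1.95e-07 in NOD.Idd2. Its relative Bub1b read 3.58, 3.56 and 3.33 CPM in NOD B cells against 9.19, 11.96 and 10.9 CPM in NOD dendritic cells. For Bub1b in NOD.Idd2 the values were 4.09, 4.48 and 3.28 against 13.6, 15.1 and 13.9 CPM, with log2 fold changes of 1.63 ± 0.13, edgeR adjusted p = 1.20e-07 in NOD and 1.84 ± 0.13, edgeR adjusted p = 3.76e-08 in NOD.Idd2. Bub3, the partner of both, differed far less, reading 70.8, 62.7 and 69.4 CPM in NOD B cells against 75.6, 83.9 and 89.3 CPM in NOD dendritic cells. For Bub3 in NOD.Idd2 the values were 71.7, 69.8 and 73.9 against 83.4, 86.5 and 80.2 CPM, with log2 fold changes of 0.31 ± 0.06, edgeR adjusted p = 6.27e-04 in NOD and 0.21 ± 0.06, edgeR adjusted p = 0.00962 in NOD.Idd2. Ndc80, which binds microtubules at the kinetochore, was the one mitosis gene called lower, reading 11.5, 11.8 and 12.3 CPM in NOD B cells against 6.93, 8.37 and 8.62 CPM in NOD dendritic cells. For Ndc80 in NOD.Idd2 the values were 13.7, 13.5 and 12.9 against 10.02, 10.8 and 9.596 CPM, with log2 fold changes of -0.56 ± 0.09, edgeR adjusted p = 7.91e-05 in NOD and -0.41 ± 0.09, edgeR adjusted p = 0.0011 in NOD.Idd2. In both strains all 3 dendritic cell libraries lay under the B cell libraries for Ndc80.

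The mitotic kinase and passenger genes were higher in dendritic cells in every case. The spindle pole kinase Aurka read 3.47, 3.77 and 4.43 CPM in NOD B cells against 6.97, 8.02 and 8.08 CPM in NOD dendritic cells. For Aurka in NOD.Idd2 the values were 3.696, 4.19 and 4.13 against 8.79, 9.11 and 8.15 CPM, with log2 fold changes of 0.995 ± 0.12, edgeR adjusted p = 7.16e-06 in NOD and 1.11 ± 0.12, edgeR adjusted p = 3.03e-06 in NOD.Idd2. The passenger kinase Aurkb read 6.46, 6.41 and 7.11 CPM in NOD B cells against 9.96, 12.8 and 10.3 CPM in NOD dendritic cells. For Aurkb in NOD.Idd2 the values were 7.24, 7.85 and 6.56 against 13.1, 11.96 and 12.3 CPM, with log2 fold changes of 0.74 ± 0.11, edgeR adjusted p = 6.27e-05 in NOD and 0.77 ± 0.11, edgeR adjusted p = 4.79e-05 in NOD.Idd2. Survivin (Birc5), which places Aurkb at centromeres, read 2.21, 2.07 and 1.96 CPM in NOD B cells against 6.93, 10.3 and 7.65 CPM in NOD dendritic cells. For Birc5 in NOD.Idd2 the values were 2.62, 2.83 and 2.06 against 10.3, 10.9 and 11.7 CPM, with log2 fold changes of 2.01 ± 0.17, edgeR adjusted p = 2.16e-07 in NOD and 2.11 ± 0.17, edgeR adjusted p = 1.34e-07 in NOD.Idd2. The fold change of Birc5 thus exceeded those of the kinases, a difference between genes that was not tested.

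All 5 spindle assembly genes and all 5 cytokinesis genes were higher in both strains. The Aurka activator Tpx2 read 3.6005, 4.19 and 3.29 CPM in NOD B cells against 22.9, 25.3 and 24.1 CPM in NOD dendritic cells. For Tpx2 in NOD.Idd2 the values were 4.31, 4.78 and 3.53 against 27.4, 29.1 and 28.6 CPM, with log2 fold changes of 2.72 ± 0.11, edgeR adjusted p = 1.65e-10 in NOD and 2.74 ± 0.11, edgeR adjusted p = 1.59e-10 in NOD.Idd2. The spindle kinesin Kif15 read 5.01, 6.5999 and 6.08 CPM in NOD B cells against 18.3, 19.2 and 22.5 CPM in NOD dendritic cells. For Kif15 in NOD.Idd2 the values were 6.88, 7.38 and 5.53 against 22.3, 25.5 and 24.1 CPM, with log2 fold changes of 1.77 ± 0.13, edgeR adjusted p = 4.98e-08 in NOD and 1.85 ± 0.13, edgeR adjusted p = 3.59e-08 in NOD.Idd2. No dendritic cell library overlapped a B cell library for either gene. The central spindle kinesin Kif23 read 11.03, 11.8 and 11.4 CPM in NOD B cells against 42.9, 46.6 and 46.8 CPM in NOD dendritic cells. For Kif23 in NOD.Idd2 the values were 12.2, 13.5 and 11.2 against 53.2, 61.5 and 49.7 CPM, with log2 fold changes of 2.005 ± 0.08, edgeR adjusted p = 1.03e-10 in NOD and 2.14 ± 0.08, edgeR adjusted p = 5.72e-11 in NOD.Idd2. Anln read 1.57, 1.85 and 1.63 CPM in NOD B cells against 6.76, 9.64 and 7.46 CPM in NOD dendritic cells. For Anln in NOD.Idd2 the values were 1.86, 2.24 and 1.81 against 11.5, 12.9 and 7.699 CPM, with log2 fold changes of 2.25 ± 0.19, edgeR adjusted p = 2.72e-07 in NOD and 2.45 ± 0.19, edgeR adjusted p = 1.19e-07 in NOD.Idd2. Of the anaphase-promoting complex genes, the activator Cdc20 read 4.65, 4.55 and 4.82 CPM in NOD B cells against 7.45, 7.098 and 6.5003 CPM in NOD dendritic cells. For Cdc20 in NOD.Idd2 the values were 5.41, 5.96 and 5.05 against 6.09, 9.11 and 8.703 CPM, with log2 fold changes of 0.60 ± 0.14, edgeR adjusted p = 0.00205 in NOD and 0.52 ± 0.14, edgeR adjusted p = 0.0055 in NOD.Idd2. Ube2c read 1.25, 1.27 and 1.28 CPM in NOD B cells against 4.46, 6.09 and 7.19 CPM in NOD dendritic cells. For Ube2c in NOD.Idd2 the values were 2.06, 2.498 and 1.72 against 6.23, 8.56 and 7.14 CPM, with log2 fold changes of 2.23 ± 0.20, edgeR adjusted p = 4.92e-07 in NOD and 1.79 ± 0.20, edgeR adjusted p = 3.29e-06 in NOD.Idd2. Exons of Ube2c share 22.8% of their bases with those of Tnnc2 on the other strand, Kif20a shares 29.3% with Cdc23, Ccne2 17.4% with Ints8, Ncapg 13.4% with Lcorl, Ccna2 12.5% with Exosc9, E2f8 11.2% with Gm2788 and Prc1 11.1% with Rccd1. Whether the counting used strand is not given in the sources used here, so reads of such pairs may be mixed.

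The pathway genes outside the 51 were counted in the same comparison. In NOD, 42 of 54 other mitosis genes were higher and 6 lower (median log2 fold change 1.13), against 37.7% and 38.7% of all genes. Of 51 other replication genes 17 were higher and 19 lower (median 0.04), shares near those of all genes. In NOD.Idd2 the counts were 41 higher and 4 lower, and 21 higher and 17 lower. The D cyclins, which act before S phase, split. Ccnd1 stood at 971 ± 97.04 CPM in NOD dendritic cells and 1.86 ± 0.217 CPM in NOD B cells (SD, n = 3), a log2 fold change of 9.04 ± 0.15, edgeR adjusted p = 4.25e-14. Ccnd3 was higher as well (0.64 ± 0.06, edgeR adjusted p = 2.80e-07), whereas Ccnd2 (-1.16 ± 0.09, edgeR adjusted p = 6.37e-08) and Myc (-0.72 ± 0.08, edgeR adjusted p = 4.04e-06) were lower in dendritic cells. Of the inhibitors, Cdkn1a (1.93 ± 0.15, edgeR adjusted p = 7.05e-08) and Cdkn2c (1.36 ± 0.12, edgeR adjusted p = 3.50e-07) were higher and Cdkn1b (-0.17 ± 0.06, edgeR adjusted p = 0.0198) was lower. Markers of 2 other kinds of cell were measured too. Erythroblast markers summed to 7.72 to 14.4 CPM in NOD B cells and 14.9 to 21.5 CPM in NOD dendritic cells, without overlap. Of 7 tested 2 were higher and none lower, against 37.7% of all genes higher. In NOD.Idd2 they summed to 7.04 to 8.65 and 8.93 to 34.95 CPM, also without overlap. There 5 of 7 were higher and none lower, against 36.7% of all genes higher. Germinal centre B cell markers summed to 206 to 247 and 230.3 to 266 CPM in NOD, with overlap. Of 8 tested 2 were higher and 4 lower in dendritic cells, with a median log2 fold change of -0.26. In NOD.Idd2 they summed to 213.5 to 216 and 254 to 265 CPM, without overlap. There 2 were higher and 3 lower, with a median of -0.02. Their part in the differences between cell types was not tested.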

How the data were processed

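B cells and dendritic cells from spleens of NOD and NOD.Idd2 mice gave 3 poly(A)-selected libraries per group, 12 in all, grouped by their titles. The authors deposited whole-number counts for each gene symbol, and separately their normalized values, treated as a signal: the deposited signal was each library's counts divided by 1 size factor. Per the submitters' processing notes, STAR (version given as 0.12.2) and GRCm38 were used. For counting, the tool, annotation and strand setting were not given in the sources used here. Depth ranged from 8663421 to 44632276 counts, and the authors' counts carry no molecular identifiers in the labels.

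The members and the other gene lists were chosen with earlier results of these data known. Counts were tested with edgeR 4.0.16 under R 4.3.3 (TMM, filterByExpr with a minimum count of 10 and total of 15, quasi-likelihood test, Benjamini-Hochberg adjustment over all genes tested, threshold 0.05). All 51 members passed the filter in each comparison. The strain was tested in the 6 libraries of each cell type, and cell types and the difference of strain effects in a fit of all 12. The procedure was also run on simulated libraries. These were drawn independently of each other, so shared deviations of same-numbered libraries were not covered. CPM per kb used the combined length of all GENCODE exons of a gene on GRCm38. Values in every library are given for each member called by strain or in the difference of strain effects, with or without the replicate block, for the most abundant member of each role, for the 2 with the smallest p per role between cell types in NOD, and for those opposite to their role there. Near misses and other examples were chosen after their values were seen. Up to 4 called genes of other lists, the D cyclins, Myc, Cdkn1a, Cdkn1b and Cdkn2c were named as well.

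The labels number both strains 1 to 3. Deviations of B cell libraries that share a number correlated at 0.617, 0.410 and 0.815, although replicates 1 and 2 also correlated crosswise at 0.433 and 0.470. In dendritic cells the correlations were -0.00175, 0.0122 and 0.0542. Alternatives were DESeq2 1.42.0, limma-voom (limma 3.58.1), RLE size factors, other filters on low counts, a fit of all 12 libraries, limma on log2 of the deposited normalized signal plus 1, the replicate block, and libraries left out.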

Additional observations from a re-analysis of the deposited data

How the results depend on the processing

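The summed levels kept their direction under every alternative run except the replication sum between strains in B cells. As the group mean of the log2 sum in NOD.Idd2 minus that in NOD it was 0.00523, and -0.0102 to 0.0355 with each library left out. It lay below 0 when replicate 3 of NOD (-0.00847), or replicate 1 (-0.00959) or 2 (-0.0102) of NOD.Idd2, was omitted. In dendritic cells the number of members called by strain was 8, and 8 with limma-voom, RLE size factors, a filter of 1 CPM or the deposited normalized counts. It was 12 with DESeq2, 11 with the replicate block, 20 with no filter on low counts, 0 in the fit of all 12 libraries, and 2 to 11 with each library left out. Same-numbered dendritic cell libraries did not deviate together, and the block added Rrm2, Ccna2 and Smc2. In B cells the number was 0, and 1 with DESeq2 (Nusap1), 1 with both replicate 3 libraries left out (Mki67), 2 with the replicate block (Nusap1 and Tk1) and 1 with a term for replicate 3 (Nusap1). Leaving out any single B cell library gave 0. For the difference of strain effects it was 0, and 1 with DESeq2 and 1 with the replicate block (Smc2 in both). The replicate block changed no other call among the members beyond these. The cause of these changes was not tested.

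Over all genes, calls by strain in dendritic cells numbered 186, and 296 with DESeq2, 700 with no filter, 94 in the fit of all 12 libraries and 63 to 332 with a library left out. In B cells they numbered 24, and 122 with DESeq2, 156 with the block, 42 in the fit of all 12, 46 without both replicate 3 libraries, 74 with a term for replicate 3 and 13 to 18 with a library left out. For the difference they numbered 18, and 114 with DESeq2, 33 with no filter, 56 with the block and 7 to 19 with a library left out.

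Between cell types 42 members were called in NOD (41 or 42 with a library left out) and 45 in NOD.Idd2 (44 to 46). Foxm1 lost its call in NOD without B cell replicate 1 or 2 or dendritic cell replicate 2, and Mybl2 lost it in NOD.Idd2 without B cell replicate 3 or dendritic cell replicate 1 or 2. The sums were compared between cell types as the difference of group means of the log2 sum. Replication in NOD was 0.33, and 0.35 with RLE factors, 0.29 with plain totals and 0.82 as a mean of log2 CPM, which weights genes equally. The latter gave 1.34 against 1.11 for mitosis in NOD, 0.93 against 0.44 for replication in NOD.Idd2 and 1.504 against 1.37 for mitosis in NOD.Idd2. The depth of NOD.Idd2 dendritic cell replicate 3 limits what low genes such as Ccnb1 and Plk1 can show.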

Other observations

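Of the 51 genes, 4 lie on chromosome 9, where the Idd2 locus was mapped: Anln (chr9:22332012-22389188), Kif23 (chr9:61915905-61946774), Ccnb2 (chr9:70407692-70421547) and Kif15 (chr9:122951046-123018733), all on GRCm38 in GENCODE. The interval carried by these mice is not given in the sources used here. In dendritic cells their strain effects were 0.47 ± 0.17, edgeR adjusted p = 0.272, 0.28 ± 0.07, edgeR adjusted p = 0.0757, 0.36 ± 0.10, edgeR adjusted p = 0.159 and 0.26 ± 0.09, edgeR adjusted p = 0.25 on the log2 scale, and none passed. The 8 genes that rose in NOD.Idd2 dendritic cells lie on 8 chromosomes other than 9.

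Rrm1 and Rrm2, which encode the large and small subunits of 1 enzyme, had unlike profiles: Rrm1 stayed between 61.7 and 76.5 CPM over all 12 libraries, while Rrm2 ran from 6.08 to 34.2 CPM. The condensin subunits split likewise, with Smc2 between 47.8 and 65.2 CPM, Ncapd2 between 36.6 and 46.1 CPM, and Ncapg between 3.05 and 16.2 CPM. Ndc80, of the same kinetochore complex as Spc25, was lower in dendritic cells than in B cells in both strains, while Spc25 did not pass in NOD and was higher in NOD.Idd2.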
